A study of Homo sapiens with 8 samples.

Results

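Wnt ligands are secreted glycoproteins that carry a lipid, and they signal between neighbouring cells. They bind Frizzled receptors, either with the co-receptors LRP5 and LRP6, which leads to stabilised beta-catenin and TCF-driven transcription, or with receptors such as ROR2 and RYK, which act without beta-catenin on cell polarity and movement. In prostate cancer, WNT5A has been studied for its part in invasion, and WNT16 is known as a product of damaged prostate fibroblasts.

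The 10 ligand genes described here are WNT2B, WNT3, WNT4, WNT5A, WNT5B, WNT7B, WNT9A, WNT10A, WNT11 and WNT16. They were taken by name from 22395 genes with a signal of their own, each gene represented by the probe set with 1 gene symbol and the highest mean over 8 arrays. All 10 were measured, and all 10 lay above the filter on low signal (a mean of 2.51 on the log2 scale). Another 9 Wnt ligand genes were on the array, and their values are given where they differ between lines.

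The tested cells were C4-2B, DU145, PC3 and VCaP prostate cancer lines transfected with siRNA against DNAPK (labelled si7DNAPK; the DNA-dependent protein kinase), and the controls were the same lines given non-targeting siRNA. RNA was taken at 48 hours, and each line gave 1 array per siRNA, which makes 4 pairs. C4-2B derives from LNCaP and grows in bone, VCaP came from a vertebral metastasis, DU145 from a brain metastasis and PC3 from a bone metastasis. C4-2B and PC3 were grown in RPMI1640, DU145 and VCaP in DMEM. Cultures within a line and siRNA were not repeated, so the p-values below rest on the spread between lines, or between the 2 arrays of a line. They do not rest on the spread of 1 gene alone, since limma draws each gene's variance towards that of all genes (the prior).

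Values are log2 signals after robust multi-array averaging (RMA), and every response is DNAPK siRNA minus control on that scale. PRKDC, the gene of the DNA-PK catalytic subunit and the target of the siRNA, read 6.76 with DNAPK siRNA and 9.29 in the control of C4-2B. The PC3 pair read 7.17 and 9.17, the DU145 pair 8.08 and 9.17, and the VCaP pair 9.18 and 9.80. PRKDC was lower in all 4 pairs, by the most in C4-2B and by the least in VCaP, where 65.0% of the control signal was left. The epithelial genes EPCAM and CDH1 read 8.84 or more on every array, while PTPRC of blood cells and DCN of fibroblasts read 2.02 or less. The keratin genes KRT8 and KRT18 read only 3.58 to 5.47, and the fibroblast collagen gene COL1A1 read 3.63 to 5.06. KLK3 (PSA) stood at 10.24 and 10.12 in C4-2B but at 4.75 and 4.46 in VCaP, a line known to make PSA, although ERG, which is fused to TMPRSS2 in VCaP, read 8.65 and 8.57 there and at most 3.56 elsewhere.

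The clearest pattern among the ligands was a higher signal of WNT5A and of WNT9A in PC3 than in the other lines. The bases upstream of their transcription starts are shown because these are the ligands of the 10 that stood apart in PC3 (WNT7A, outside the set, did too). They come from RefSeq (GRCh38.p14), 250 bases each, 5′ to 3′ on the strand of the gene, with the GC box (GGGCGG on either strand, which reads CCGCCC on the other) in capitals. WNT5A has another listed start further downstream, and the more upstream one is used here.
WNT5A, chr3:55487307-55487556, minus strand: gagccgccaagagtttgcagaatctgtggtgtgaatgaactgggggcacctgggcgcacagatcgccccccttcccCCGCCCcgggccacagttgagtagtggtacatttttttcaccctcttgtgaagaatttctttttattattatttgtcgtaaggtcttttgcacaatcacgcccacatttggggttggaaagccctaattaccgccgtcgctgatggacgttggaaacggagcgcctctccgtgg
WNT9A, chr1:227947933-227948182, minus strand: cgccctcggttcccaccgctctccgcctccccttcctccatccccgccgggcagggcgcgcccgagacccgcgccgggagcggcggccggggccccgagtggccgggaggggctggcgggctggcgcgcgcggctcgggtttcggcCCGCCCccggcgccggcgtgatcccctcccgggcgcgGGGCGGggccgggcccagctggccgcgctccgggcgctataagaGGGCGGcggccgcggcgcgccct

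The stretches differ in composition. The WNT9A window is 84.4% G or C, with 44 CG dinucleotides, and the WNT5A window is 52.8% G or C, with 14. The window before the other WNT5A start, not printed, is 64.4% G or C, with 18 CG dinucleotides and 0 GC boxes. Over 35114 windows of the same length before RefSeq starts, the median was 58% G or C. The GC box occurred 3 times before WNT9A and 1 time in the printed WNT5A window, and 42.6% of all windows hold it. The TCF/LEF core CTTTGA, searched on both strands, was in none of the 11 windows of the 8 ligand genes with an entry, and 11.2% of all windows hold it. WNT7B and WNT11 had no entry in this table.

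Which line carries which ligand was asked first. The deposited table has no detection call, so a signal was counted as above background when it lay over the 95th percentile of 355 olfactory receptor genes on the same array, a level between 3.22 and 3.61. A few olfactory receptor genes are known to be made in prostate cells. Probe sets differ in how well they bind, so this level gives no order between ligands. A bound on a difference drawn from it rests on where the level is set. WNT3 and WNT5A were above this level on all 8 arrays, WNT9A on 7 and WNT7B on 6. WNT5B and WNT16, at 2.67 to 3.15, were above it on none. The median of the olfactory receptor genes was between 1.78 and 2.02, so a value under the level does not show that a ligand was silent. For WNT3 these calls hold for the probe set used. Of its other probe sets, 1 read 2.79 to 3.17, under the level on every array. The remaining WNT3 probe set read 3.13 in the C4-2B control, 3.19 with DNAPK siRNA in PC3 and 3.38 in the VCaP control. The levels on those arrays were 3.46, 3.27 and 3.61. Neither of these probe sets was therefore above the level on both arrays of C4-2B, PC3 or VCaP. On both arrays of a line, 7 ligands were above background in PC3 (WNT2B, WNT3, WNT4, WNT5A, WNT7B, WNT9A and WNT11), 6 in DU145 (WNT2B, WNT3, WNT5A, WNT7B, WNT9A and WNT10A), 4 in C4-2B (WNT3, WNT5A, WNT7B and WNT9A) and 2 in VCaP (WNT3 and WNT5A). In all, 45 of 80 values lay above this level. In VCaP the count was 6 with DNAPK siRNA and 2 in the control, where the level itself was 3.38 and 3.61. The total rests on where the level is set, since 71 lay above the 90th percentile of the same genes and 12 above the 99th. The order of the lines rests on it too. With DNAPK siRNA and in the control, the 90th percentile gave 9 and 10 ligands in DU145, 8 and 10 in PC3, 10 and 8 in C4-2B, and 8 and 8 in VCaP. The 99th gave 4 and 3 in DU145, 2 and 2 in PC3, 0 and 0 in C4-2B, and 0 and 1 in VCaP.

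**Figure D1:**
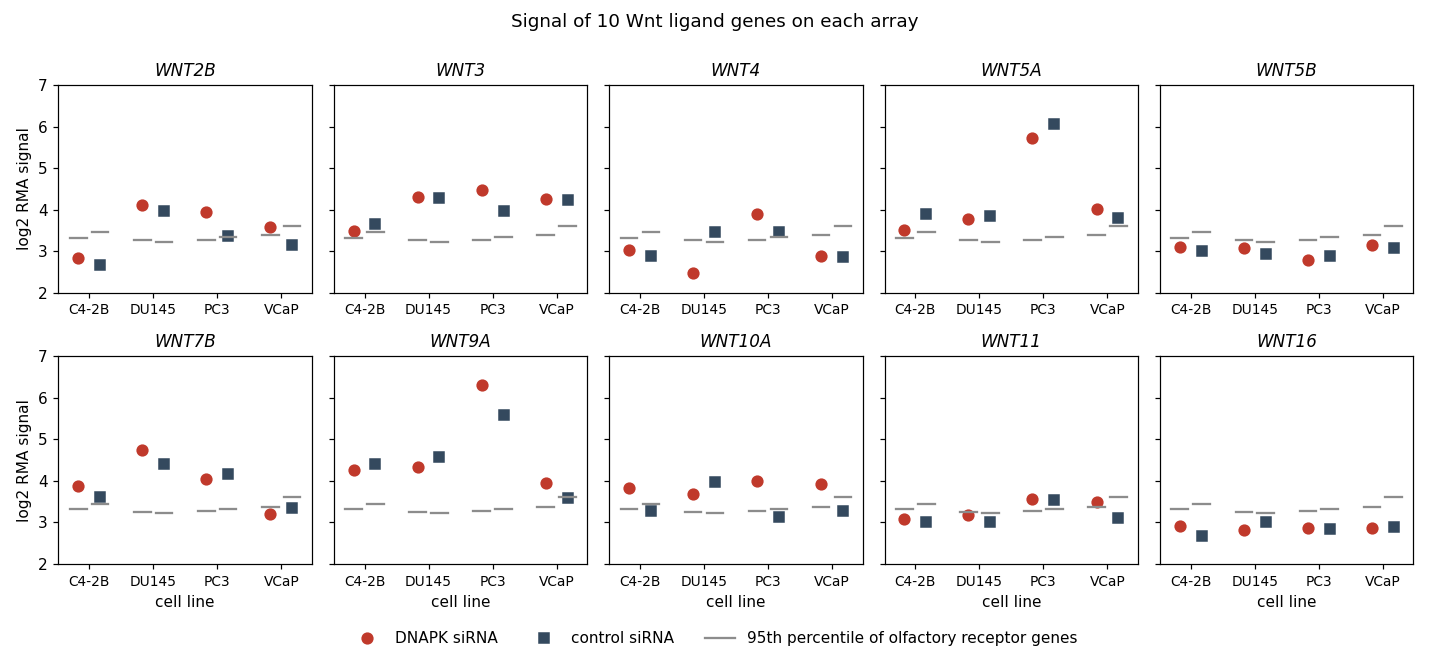
Log2 RMA signal (y axis) of the 10 ligand genes on each array, by cell line (x axis), with DNAPK siRNA as red circles, control siRNA as dark squares and the 95th percentile of olfactory receptor genes on that array as a grey line. WNT5A and WNT9A read between 5.60 and 6.31 in PC3 and at most 4.58 in the other lines, while WNT5B and WNT16 stay under the grey lines.

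WNT5A, which signals mostly without beta-catenin, through ROR2 and Frizzled receptors, read 5.73 with DNAPK siRNA and 6.05 in the control in PC3. The other 6 arrays read between 3.51 and 4.01, so no array of another line came near PC3. The PC3 mean of 5.89 exceeded that of VCaP, the next line at 3.90, by 1.99 (95% interval 1.54 to 2.44; limma, adjusted p = 1.59e-04). VCaP, DU145 (3.81) and C4-2B (3.70) did not differ beyond their spread, with neighbours 0.10 apart and adjusted p of 0.717 and 0.737 (limma). WNT9A, known for its part in joint formation, read 6.31 with DNAPK siRNA and 5.60 in the control in PC3, against 3.58 to 4.58 on the other arrays. Its mean in PC3 (5.95) exceeded that in DU145 (4.46) by 1.49 (0.92 to 2.07; limma, adjusted p = 0.00350). The steps to C4-2B (4.34) and on to VCaP (3.77) did not pass (limma, adjusted p = 0.759 and 0.114). Both differences between lines rest on PC3. Without it the range of the line means was 0.20 for WNT5A and 0.69 for WNT9A, and neither passed (limma F test, adjusted p = 0.689 and 0.0556).

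WNT2B and WNT7B, both activators of beta-catenin signalling, had their highest means in DU145. WNT2B read 4.12 with DNAPK siRNA and 3.96 in the control in DU145, 3.95 and 3.36 in PC3, 3.58 and 3.15 in VCaP, and 2.84 and 2.67 in C4-2B. DU145 lay above C4-2B by 1.29 (0.88 to 1.70; limma, adjusted p = 0.00104). C4-2B was not above background. With the 95th percentile as the ceiling for C4-2B, this difference is at least 0.66, or at least 1.58-fold. The 99th percentile in C4-2B was 4.46 on each array, above the DU145 mean of 4.04, and leaves no bound. Among neighbours, the step between VCaP and C4-2B passed (0.62, adjusted p = 0.0293), and those between DU145 and PC3 (0.39, adjusted p = 0.143) and PC3 and VCaP (0.29, adjusted p = 0.235) did not (limma).

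WNT7B, which acts through the co-receptors RECK and ADGRA2 on blood vessels of the mouse brain, read 4.75 with DNAPK siRNA and 4.40 in the control in DU145. It read 4.05 and 4.17 in PC3, 3.87 and 3.62 in C4-2B, and 3.22 and 3.35 in VCaP. The arrays of the 4 lines did not overlap, but none of the 3 steps between neighbours passed, with adjusted p from 0.0913 to 0.172 (limma). Between DU145 and VCaP the difference was 1.29 (0.86 to 1.73; limma, adjusted p = 0.00114). VCaP was not above background. With the 95th percentile as the ceiling for VCaP, DU145 was at least 2.11-fold higher. The 99th percentile in VCaP was 4.34 with DNAPK siRNA and 4.19 in the control, which gives a lower bound against the DU145 mean of 4.57. The difference between lines passed with any 1 line left out (limma F test, adjusted p of at most 0.0224).

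WNT3, a beta-catenin ligand of early body axis formation, set C4-2B apart. It read 3.49 with DNAPK siRNA and 3.64 in the control in C4-2B, and between 3.98 and 4.47 on the 6 other arrays. The step between PC3 (4.22) and C4-2B (3.57) was 0.65 (0.20 to 1.10; limma, adjusted p = 0.0323), while DU145, VCaP and PC3 lay within 0.06 of each other. WNT3 had 3 probe sets, and they disagreed. In VCaP the one used read 4.26 with DNAPK siRNA and 4.24 in the control, and the second read 4.52 and 3.38. With the mean of the 3 probe sets, the difference between lines no longer passed (limma F test, adjusted p = 0.178).

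Over all 10 ligands, 5 differed between lines by the F test (WNT2B, WNT3, WNT5A, WNT7B and WNT9A), and 5 did not (WNT4, WNT5B, WNT10A, WNT11 and WNT16). Of all 16796 genes tested, 62.6% differed between lines by the same test, so the share of the ligands is no higher than that of genes at large. Of the 30 steps between neighbouring lines, 4 passed, while 19.3% of such steps passed over all genes. In pairs of lines, the ligands that passed (limma) were WNT2B, WNT3 and WNT7B, lower in C4-2B than in DU145, and WNT2B, WNT3, WNT5A, WNT9A and WNT11, lower in C4-2B than in PC3. WNT2B and WNT3 were lower in C4-2B than in VCaP. WNT5A and WNT9A were lower in DU145 than in PC3, WNT2B and WNT7B higher in DU145 than in VCaP, and WNT5A, WNT7B and WNT9A higher in PC3 than in VCaP. In the same order of pairs, 34.5%, 36.2%, 34.7%, 30.5%, 41.7% and 41.1% of all genes passed in either direction. Leaving out C4-2B ended the calls of WNT2B (adjusted p = 0.0603) and WNT3 (adjusted p = 0.962), leaving out DU145 added WNT4 (adjusted p = 0.0180) and leaving out VCaP added WNT11 (adjusted p = 0.0355; all limma F tests).

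**Figure D2:**
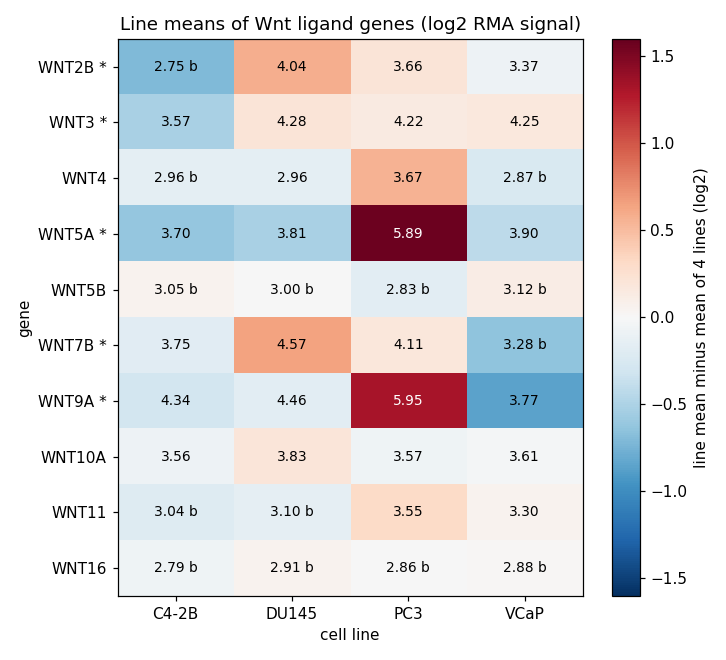
Mean log2 RMA signal of each ligand gene (rows) in each line (columns, mean of 2 arrays), printed in the cell and coloured by its distance from the mean of the 4 lines. An asterisk marks a difference between lines past an adjusted p of 0.05 (limma F test), and b marks a line where neither array was above background. PC3 has the darkest cells, at 5.89 for WNT5A and 5.95 for WNT9A.

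The ligands that did not pass had narrow ranges or low signals. WNT4, which acts in kidney and reproductive tract development, averaged 3.67 in PC3 and between 2.87 and 2.96 in the other lines (limma F test, adjusted p = 0.148). Its PC3 arrays read 3.89 with DNAPK siRNA and 3.45 in the control, and the DU145 control also read 3.45. WNT11, a ligand of cell movements in gastrulation, read 3.56 with DNAPK siRNA and 3.55 in the control in PC3 and between 3.01 and 3.49 elsewhere (adjusted p = 0.0858). WNT10A, a beta-catenin ligand needed for teeth and other skin appendages, had line means between 3.56 and 3.83 (adjusted p = 0.745). WNT5B, the close paralog of WNT5A, had line means between 2.83 and 3.12 (adjusted p = 0.424), and WNT16 between 2.79 and 2.91 (adjusted p = 0.905). WNT5B in PC3, where WNT5A was high, was the lowest of the 4 line means, and it was not above background in any line.

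Of the ligands outside this set, WNT2 and WNT7A had a wider range of line means (4.41 and 2.39) than WNT5A (2.19), the widest of the 10. WNT2, a beta-catenin ligand of lung development, read 6.32 with DNAPK siRNA and 7.22 in the control in VCaP, and at most 2.73 on any other array, where it was not above background. With the 95th percentile as the ceiling for the other lines, VCaP was at least 11.5-fold above DU145, 11.1-fold above PC3 and 10.4-fold above C4-2B. The 99th percentile in those lines lay between 4.04 and 4.55, which gives smaller lower bounds against the VCaP mean of 6.77. The difference between lines passed (limma F test, adjusted p = 1.15e-05). WNT7A read 5.66 and 5.50 in PC3 and at most 3.76 elsewhere (adjusted p = 6.07e-05). WNT8B averaged 4.52 in C4-2B and 4.06 in VCaP, against 2.86 in DU145 and 2.75 in PC3 (adjusted p = 0.00194), and WNT10B 4.56 in C4-2B and 4.40 in VCaP, against 3.68 in PC3 and 3.57 in DU145 (adjusted p = 0.0131; all limma F tests). WNT1, WNT3A, WNT8A and WNT9B did not pass. WNT6 lay below the filter.

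For the 3 of the 10 ligands with the widest range of line means, the genes with the most similar signal over the 8 arrays were looked up. For WNT5A they were TENM4, CHRM3 and EYA4 (Pearson r of 0.995, 0.992 and 0.991), each between 5.29 and 5.52 in PC3 and at most 3.30 in the other lines. For WNT9A they were ANKIB1, DORIP1 and TMEM127 (0.995, 0.986 and 0.986), and for WNT7B GTF2H4, HAUS2 and XRCC4 (0.989, 0.988 and 0.985). Line means ran from 8.66 to 9.30 for ANKIB1, 3.36 to 4.29 for DORIP1 and 4.87 to 6.24 for TMEM127. Those of WNT9A ran from 3.77 to 5.95, so these genes shared its order of lines but not the size of its range. The 8 arrays come from 4 lines. Above 0.95, 201 genes correlated with WNT5A, 55 with WNT9A and 62 with WNT7B, so these values describe a shared pattern over lines. The antisense gene WNT5A-AS1, whose RefSeq start lies 312 bases from the upstream WNT5A start on the other strand, did not share it. Its line mean was 3.48 for PC3, below C4-2B at 3.96 and DU145 at 3.70 and above VCaP at 3.31 (named after its values were seen).

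None of the 10 ligands passed the test of DNAPK siRNA against control over 4 lines (limma, smallest adjusted p = 0.688), and 0 of 16796 genes did (0%). PRKDC, the target, did not pass either, at a mean of -1.56 (limma, adjusted p = 0.688), so a ligand that misses this threshold is not shown to be without a response. At an unadjusted p under 0.05 there were 2 of the 10 ligands, WNT2B and WNT10A, and 7.19% of all genes. Mean differences lay above 0 in 8 of 10 ligands and in 56.4% of all genes, with a median of 0.09 over the ligands and 0.03 over all genes. Of the 8 tested ligands outside this set, 2 lay above 0, with a median of -0.08. The lean above 0 was therefore not shared by Wnt ligands at large.

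WNT10A had the largest mean difference of the 10. It read 3.997 with DNAPK siRNA and 3.14 in the control of PC3, 3.94 and 3.28 in VCaP, and 3.84 and 3.28 in C4-2B. In DU145 the order was the other way, at 3.70 with DNAPK siRNA and 3.97 in the control. In PC3, VCaP and C4-2B its control arrays were under the background level and its DNAPK siRNA arrays were above it. The mean difference was 0.45 ± 0.50 (SD, 4 lines), with a 95% interval of 0.01 to 0.89 (limma, unadjusted p = 0.0455, adjusted p = 0.688). That this interval lies above 0 rests on the prior. With the other prior (limma with trend and robust settings), 0 of the 10 ligands had an unadjusted p under 0.05. Leaving out DU145 moved the mean difference to 0.69, and without PC3 it was 0.32 and without VCaP 0.38.

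WNT2B had a difference above 0 in each line, which was 0.59 for PC3, 0.43 for VCaP, 0.17 for C4-2B and 0.16 for DU145. The mean was 0.34 ± 0.21 (SD, 4 lines), with an interval of 0.05 to 0.63 (limma, unadjusted p = 0.0279, adjusted p = 0.688). WNT11 too was above 0 in each line, but by 0.00445 in PC3 and at most 0.38 (VCaP), with a mean of 0.16 ± 0.16 (limma, adjusted p = 0.757). These 2 ligands are those with the same sign in 4 lines, both higher, where 11.5% of all genes were higher in 4 lines and 5.89% lower. Both C4-2B arrays of WNT2B and WNT11 were under the background level, as were both DU145 arrays of WNT11 and the VCaP controls of both genes.

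The PC3-high ligands went different ways. In PC3, WNT9A was higher with DNAPK siRNA by 0.71 and WNT5A was lower by 0.32 (a difference of -0.32). WNT9A also differed in sign between lines, at 0.37 for VCaP, -0.13 for C4-2B and -0.24 for DU145. Its mean was 0.18 ± 0.44 (limma, adjusted p = 0.806), and it was 0.000432 without PC3 and 0.32 without DU145. WNT5A had 0.22 for VCaP, -0.06 for DU145 and -0.39 for C4-2B, with a mean of -0.14 ± 0.28 and an interval of -0.46 to 0.18 (limma, adjusted p = 0.810). Its mean was -0.05 without C4-2B and -0.26 without VCaP.

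Among the probe sets used, WNT4 gave the largest single difference (-0.98), in DU145. It read 2.47 there with DNAPK siRNA, under the background level, and 3.45 in the control. The other lines had 0.44 (PC3), 0.14 (C4-2B) and 0.03 (VCaP), so its mean of -0.09 ± 0.62 turned to 0.20 without DU145. WNT7B was higher in DU145 (0.35) and C4-2B (0.25) and lower in PC3 (-0.12) and VCaP (-0.13). WNT3 had 0.49 in PC3 and between -0.15 and 0.03 in the other lines, and its mean of 0.10 turned to -0.03 without PC3. WNT5B and WNT16, which were not above background, had means of 0.06 and 0.02, and intervals of -0.20 to 0.31 and -0.26 to 0.29.

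**Figure D3:**
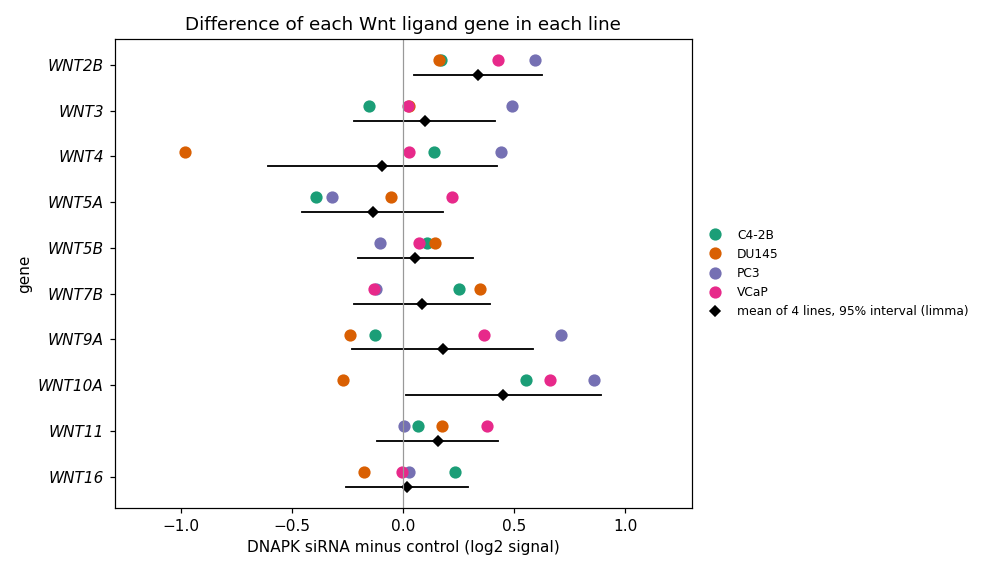
DNAPK siRNA minus control in log2 signal (x axis) for each ligand gene (rows), with 1 coloured point per line and a black diamond and bar for the mean of 4 lines and its 95% interval (limma). With the prior of the main fit, the intervals of WNT2B and WNT10A lie above 0 and the other 8 span it. The lowest point is WNT4 in DU145 at -0.98.

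Within a line there is 1 array per siRNA and no test. With the probe sets used, none of the 40 differences of the ligands passed 1 (2-fold) either way. That size was passed by 3.7% of genes in VCaP, 1.12% in DU145, 1.07% in PC3 and 0.583% in C4-2B. The second WNT3 probe set, not among the 40, had 1.14 in VCaP. A size of 0.5, chosen after the values were seen, was passed by 6 of the 40. These were 3 in PC3 (WNT2B, WNT9A and WNT10A) and WNT10A in C4-2B and VCaP, all higher, and WNT4 in DU145, lower. Among all genes it was passed by 23.3% in VCaP, 11.4% in DU145, 11.3% in PC3 and 8.27% in C4-2B. VCaP, with the widest spread over all genes (SD 0.462) and the smallest loss of PRKDC signal, thus had 1 of 10 ligands past 0.5. The median difference of the ligands was 0.23 in PC3, 0.15 in VCaP, 0.12 in C4-2B and -0.01 in DU145. That of all genes was 0.04 in PC3, -0.00316 in VCaP, 0.04 in C4-2B and 0.05 in DU145.

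The responses of VCaP and C4-2B were also set, as a pair, against those of PC3 and DU145, a grouping taken from earlier results of these data. None of the 10 ligands differed (limma, adjusted p of 0.991 or more), and 0 of all genes did (0%). The widest estimates were 0.36 for WNT4 (interval -0.69 to 1.40) and -0.32 for WNT3 (-0.97 to 0.32), and a difference of 1 is within the intervals of WNT4 and WNT10A (-0.59 to 1.21).

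Genes that make, receive or answer Wnt signals were read beside the ligands. Of 13 listed genes of Wnt acylation, transport and release, 11 were tested and 0 passed the test over 4 lines, with SNX3 at 0.16 ± 0.16 and WLS, the carrier that brings Wnt proteins to the cell surface, at 0.09 ± 0.47 (SD, 4 lines). WLS was 0.77 in C4-2B and between -0.31 and 0.00093 in the other lines. Its level differed between lines, with means of 6.82 in DU145 and 6.80 in PC3, against 5.57 in VCaP and 4.72 in C4-2B (limma F test, adjusted p = 6.59e-04). Of 10 listed Frizzled genes, 9 were tested and 0 passed, with FZD4 at -0.75 ± 0.26 and FZD6 at 0.34 ± 0.56. FZD4 was lower in each line, and had the smallest unadjusted p of the genes named from these lists (limma, unadjusted p = 5.80e-04, adjusted p = 0.688).

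Of 11 listed co-receptor genes, all 11 were tested and 0 passed. ROR2, a receptor of WNT5A, had -0.28 ± 0.21 at line means between 2.79 and 3.47, and its relative ROR1 had -0.20 ± 0.40. Of 17 listed antagonist genes, 13 were tested and 0 passed, with SOST at -0.42 ± 0.27 and SFRP4 at -0.32 ± 0.25. SFRP4 had line means between 2.34 and 2.93, under the background level, and SOST between 3.23 and 3.79, near it. Of 18 listed beta-catenin target genes, 15 were tested and 0 passed, with SNAI2 at -0.45 ± 0.68 and JUN at 0.39 ± 0.20. At an unadjusted p under 0.05 (limma) there were 0 genes of release, 1 Frizzled, 0 co-receptors, 2 of 13 antagonists and 3 of 15 targets, where 7.19% of all genes were. List medians lay between -0.08 (antagonists) and 0.01 (Frizzled receptors), against 0.03 for all genes. The other 8 measured ligands had a median of -0.08 and 2 of 8 above 0, with 0 at an unadjusted p under 0.05. WNT2 had -0.90 in VCaP, the one line where it was above background.

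**Figure D4:**
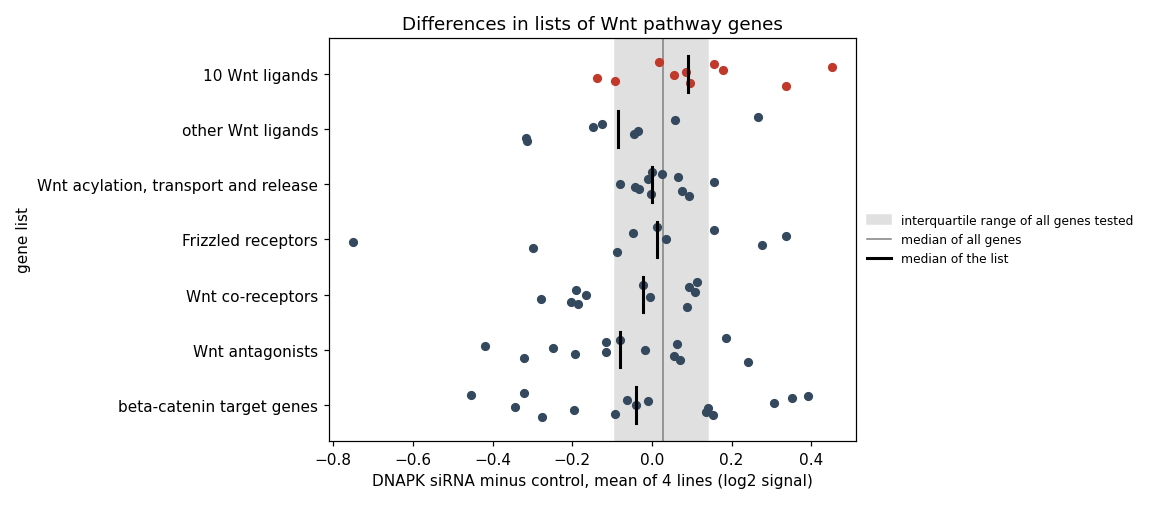
DNAPK siRNA minus control, mean of 4 lines in log2 signal (x axis), for the genes of each list (rows), with the 10 ligands in red, the other lists in dark blue, a black bar at each list's median, and grey shading over the interquartile range of all genes tested. WNT10A at 0.45 is the highest of the ligands, and FZD4 at -0.75 is the lowest point in the plot.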

How the data were processed

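Total RNA (400 ng) from 4 prostate cancer lines was labelled with the Affymetrix WT Plus kit for array hybridisation, per the labels' protocols. The authors deposited log2 signals per probe set, made with oligo and RMA (versions not given) per the submitters' processing notes. RMA makes the distributions of arrays alike, so a difference is relative to the bulk of genes. Array medians lay between 2.94 and 2.99. Precision is limited by the number of arrays. Of 53617 probe sets, 23871 had 1 gene symbol, 1842 had several and 27904 were unnamed here. For 22569 of the 23871 the symbol was taken by Entrez identifier (RefSeq, GRCh38.p14), whether or not it changed. A filter at the 25th percentile of gene means left 16796 genes.

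Fits used limma 3.58.1 (R 4.3.3) with line and siRNA as terms, 3 residual degrees of freedom (7.55 with the prior) and Benjamini-Hochberg adjustment over all genes. The response difference had 2 before the prior. Fits were tested on simulated data in which a changed gene had the same response in all 4 lines. Those data do not show that responses differing between lines would be called. The line pairs the arrays by design, and after subtraction of group means arrays of a line correlated at 0.864 to 0.918 and those of different lines at most at 0.0135. Members, gene lists and the grouping of lines were chosen with earlier results of these data known. Genes named are PRKDC, markers, the ligands, the 2 members of each other list with the largest mean difference, and the 3 most similar genes of the 3 ligands with the widest range.

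Alternatives were other scaling, filters, probe set rules and priors, a fit with no line block, and each line left out. Some planned markers are not reported here.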

Additional observations from a re-analysis of the deposited data

Results flagged for a closer look

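In the controls, WNT5A in PC3 (6.05) was separated from the other lines (3.80 to 3.90) by a gap of 0.954 of the range of the 4 lines. With DNAPK siRNA, WNT9A in PC3 (6.31) was separated from the other lines (3.95 to 4.34) by a gap of 0.835 of the range. These were 2 of 30 sets of 4 values examined, and chance alone gives about 1 in 20.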

How the results depend on the processing

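The counts of called genes over 4 lines and for the response difference were 0 under every alternative run, including the fit with no replicate block (0 genes, cell line left out), which changed no call of a ligand. The count for differences between lines ran from 8181 to 9397 with a line left out, and from 8780 to 10803 under the other alternatives, against 10520. The filters changed the number of genes tested, so these counts are not shares. The 8780 were of 11197 genes, with genes at or below the median left out. With no filter the count was 10750 of 22395, and in the main fit 10520 of 16796. The number of ligand values above background was 71 at the 90th percentile of olfactory receptor genes, 12 at the 99th and 29 at the median of all genes, against 45. The number of ligands at an unadjusted p under 0.05 over 4 lines (limma), 2 in the main fit, depended on the setting. It was 1 with median centring, 1 with cyclic loess scaling and 0 with the other prior. It stayed 2 with no filter and with the mean of all probe sets. Without PC3 or without VCaP it was 0, without C4-2B 1 and without DU145 2. Median centring turned the WNT16 mean to -0.0131, and the mean of all probe sets turned the WNT3 response difference to 0.27. The cause was not tested. With 1 line left out, mean differences ran from -0.0526 to 0.0840 for WNT16, -0.27 to 0.20 for WNT4, -0.000111 to 0.16 for WNT7B and -0.0344 to 0.18 for WNT3. Response differences ran from -0.29 to 0.14 for WNT2B, -0.59 to 0.36 for WNT9A, -0.36 to 1.07 for WNT4, -0.29 to 0.18 for WNT7B, -0.25 to 0.88 for WNT10A, -0.20 to 0.41 for WNT5A, -0.0541 to 0.19 for WNT5B and -0.0212 to 0.29 for WNT11. With genes at or below the median left out, WNT2B, WNT4, WNT5B, WNT10A, WNT11 and WNT16 could not be tested. Most ligand signals lie near background, where a log2 difference can understate a change. Whether it did so for these ligands was not tested.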
